A study of Homo sapiens with 12 samples.

Results

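The transcript levels of T47D cells that kept their normal proteasome subunit supply were compared after bortezomib and after DMSO, over all expressed genes. The 6 libraries used for the contrast, of 12 in the series, are the 3 labelled as control with DMSO and the 3 labelled as control with bortezomib, and they were chosen by these labels. T47D is an established line of estrogen receptor-positive luminal breast cancer cells. All groups carry an shRNA that can be induced to lower PSMD2, which encodes part of the 19S regulatory particle. In the control groups the hairpin was left uninduced, and the cells then received DMSO or 20 nM bortezomib for 16 h. The other 6 libraries, called Lo19S, had the hairpin induced with 0.2 µg/ml doxycycline for 3 days and then spent 24 h without doxycycline before the same DMSO or bortezomib treatment. They share the estimate of the spread and enter 1 comparison at the end. Only 1 line was used, and the labels do not say whether replicates were separate cultures, so p-values measure the spread between these libraries, which may be technical. In bulk RNA, fewer cells of a type and less RNA per cell cannot be told apart.

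Gene counts per library ran from 9557627 to 11898216 over the 6 libraries, so that 3 counts, the floor used for a count of 0, equal 0.252 to 0.314 CPM (a gene's counts over the library's total, on a common scale). Levels are given as CPM after TMM scaling, a scaling that assumes most genes keep their level. They are not divided by gene length, so they compare a gene between libraries and not genes with each other. The 50 genes with the most counts took 11.3 to 11.4% of counts in DMSO and 20.0 to 20.3% in bortezomib libraries. Control DMSO replicate 3 differed most from its group. Chi-square per degree of freedom, a measure of spread beyond counting error, was 3.636 and 3.987 for its pairs with replicates 1 and 2. It was 1.205 between those replicates and 1.146 to 1.256 between bortezomib libraries. Of 9619 genes at 10 CPM or more in control DMSO, replicate 3 had 10 over 1.5-fold above the mean of the other replicates and 5 below. The luminal markers checked were all measured, and they summed to 7078 to 7194 CPM in DMSO libraries. PDGFRA and POSTN of fibroblasts, CD3E and LYZ of leukocytes, and TEK and EMCN of endothelial cells had no count in any of the 6.

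Bortezomib blocks the chymotrypsin-like site of the 20S core particle, the chamber in which ubiquitin-tagged proteins are cut to peptides. Cells that cannot clear such proteins are known to call on several programmes of transcription. Heat shock factors bind heat shock elements and raise cytosolic chaperones. The factor NRF1 (NFE2L1) binds antioxidant response elements, with small MAF proteins, and raises proteasome subunits. The unfolded protein response and the integrated stress response raise endoplasmic reticulum (ER) chaperones and genes of amino acid supply.

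The 250 bases before the start of 5 genes that rose are shown, because they carry the letters by which these programmes are usually recognised. Sequences are from RefSeq on build GRCh38.p14, in the direction of the gene, with the match in capitals. In the first 3 the capitals are GAANNTTC, the 2-unit heat shock element, in HSPA5 the ER stress response element, and in PSMD12 TGACNNNGC, the core of the antioxidant response element.
HSPA1A, chr6:31815293-31815542, plus strand: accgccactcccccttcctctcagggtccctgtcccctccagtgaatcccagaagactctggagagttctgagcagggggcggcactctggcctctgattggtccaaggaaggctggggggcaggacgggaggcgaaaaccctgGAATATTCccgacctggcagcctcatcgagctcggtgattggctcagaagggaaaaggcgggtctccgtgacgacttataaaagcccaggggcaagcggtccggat
HSPA6, chr1:161524290-161524539, plus strand: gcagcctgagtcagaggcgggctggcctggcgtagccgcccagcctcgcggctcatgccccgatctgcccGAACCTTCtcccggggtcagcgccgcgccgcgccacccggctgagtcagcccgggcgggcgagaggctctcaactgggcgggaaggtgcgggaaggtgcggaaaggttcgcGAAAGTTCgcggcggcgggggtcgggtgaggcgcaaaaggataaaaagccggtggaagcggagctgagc
HSPA8, chr11:123062137-123062386, minus strand: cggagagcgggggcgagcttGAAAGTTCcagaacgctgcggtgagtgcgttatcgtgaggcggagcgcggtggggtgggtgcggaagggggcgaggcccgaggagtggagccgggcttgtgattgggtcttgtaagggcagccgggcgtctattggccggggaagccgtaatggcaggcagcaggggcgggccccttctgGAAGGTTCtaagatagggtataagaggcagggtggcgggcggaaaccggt
HSPA5, chr9:125241344-125241593, minus strand: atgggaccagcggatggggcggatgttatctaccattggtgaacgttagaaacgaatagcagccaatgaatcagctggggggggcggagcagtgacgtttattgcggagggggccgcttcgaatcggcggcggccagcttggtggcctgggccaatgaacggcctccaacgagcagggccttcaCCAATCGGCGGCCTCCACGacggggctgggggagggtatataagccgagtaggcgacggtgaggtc
PSMD12, chr17:67366578-67366827, minus strand: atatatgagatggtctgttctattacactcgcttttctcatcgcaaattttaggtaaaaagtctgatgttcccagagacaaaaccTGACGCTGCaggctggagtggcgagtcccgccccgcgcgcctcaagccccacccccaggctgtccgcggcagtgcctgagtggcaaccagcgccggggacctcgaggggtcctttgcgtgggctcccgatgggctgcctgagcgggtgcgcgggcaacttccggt

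The match began 106 bases before the start in HSPA1A, 180 and 69 bases before it in HSPA6, 230 and 50 in HSPA8, 66 in HSPA5 and 165 in PSMD12. Over windows from 250 bases before to 50 after the start, searched on both strands, 6.87% of 27305 promoters held GAANNTTC, and 4.64% of the 10642 that matched a gene tested. In the HSP70 and HSP110 list 5 of 13 promoters held it, those of HSPA1A, HSPA1B, HSPA1L, HSPA6 and HSPA8. In the small heat shock and BAG list 3 of 7 did, those of HSPB1, HSPB8 and BAG2. Other chaperone lists held it less often: 2 of 23 DNAJ genes (DNAJB6 and DNAJA1), 2 of 12 HSP90 and co-chaperone genes and 2 of 14 chaperonin and prefoldin genes. It was in 8.42% of matched promoters of genes at least 8-fold higher and in 6.89% of those at least 8-fold lower. TGACNNNGC was held by 13.6% of all promoters and by 15.3% of those of genes tested. Among the 19S subunits 5 of 17 held it (PSMD1, PSMD3, PSMD12, PSMC4 and ADRM1), and among the 20S subunits 0 of 9. The ER stress response element was found in 22 promoters, 0.0806% of all, and 6 of these belonged to the 23 matched ER chaperone and degradation genes (HSPA5, HSP90B1, CALR, CANX, CRELD2 and ERO1B). TATAAA was in 18.4% of the 190 matched promoters of genes at least 8-fold higher and in 9.84% of the 305 of genes at least 8-fold lower. Its share was 5.52% over the promoters of all genes tested and 12% over all promoters. A match describes letters and not binding.

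Of 14714 genes tested, 11976 were called by edgeR's quasi-likelihood test at an adjusted p below 0.05, which is 81.4% of them. Bortezomib raised 5761 genes (39.2%) and lowered 6215 (42.2%). The change was at least 2-fold for 2131 higher genes (14.5%) and 3251 lower genes (22.1%), at least 8-fold for 297 and 490, and at least 32-fold for 75 and 80. The median log2 change over all genes was -0.04, the median size was 0.71, and the median standard error (SE) was 0.091. Over all genes tested, called or not, every bortezomib library lay above every DMSO library for 5739 genes and below every DMSO library for 6198. Because so many genes were called, a list below is read by its size and direction against these shares, not by its number of calls alone.

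Counts moved from lower genes into a smaller number of higher ones. Genes at least 2-fold higher held 10.5% of CPM in DMSO and 31.4% in bortezomib libraries, and genes at least 2-fold lower held 14.2% and 3.28%. The split of calls depends on the scaling for this reason. With library totals in place of TMM, the median of all genes shifted by -0.381 and 3717 genes were called higher and 8452 lower, so that 30.5% of calls were higher in place of 48.1%. Upper-quartile factors shifted it by -0.131 and gave 5005 and 6934. Both alternatives move values down, so rises smaller than these shifts can turn under them, and falls become larger.

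**Figure D1:**
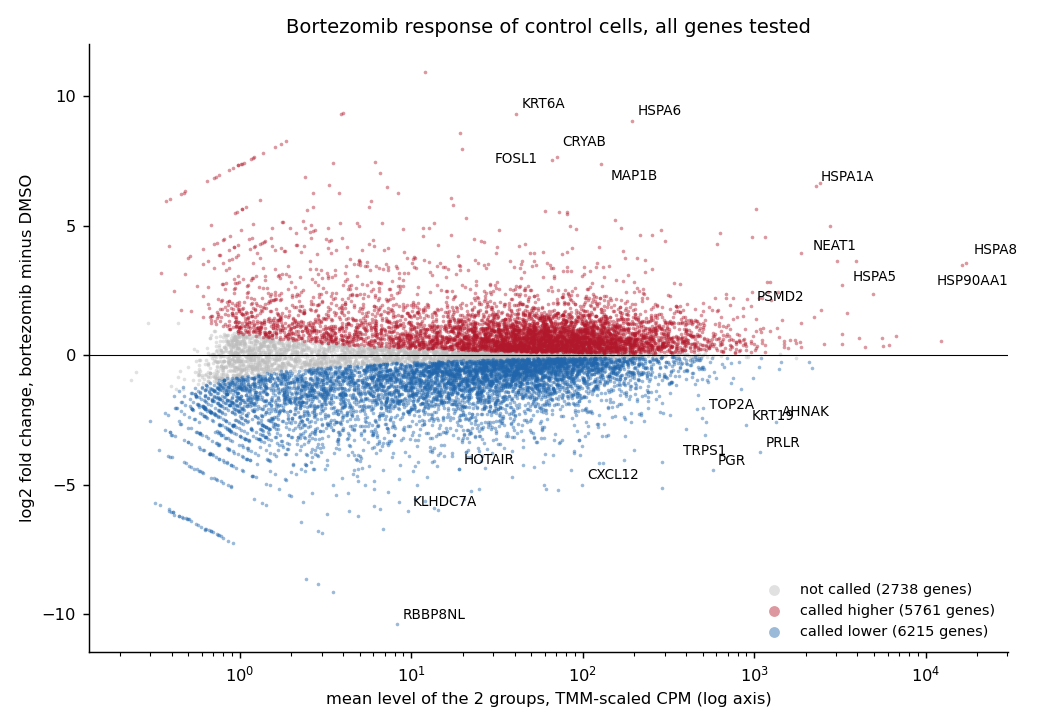
Log2 fold change (bortezomib minus DMSO, vertical) against the mean TMM-scaled CPM of both groups (log axis) for the 14714 genes tested, coloured by call, with named genes labelled. Genes called lower lie at all levels, with 1324 among the lowest 20% of genes by mean level and 838 among the highest 20%. HSPA8 and HSP90AA1 stand far above 0 among the abundant genes.

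HSP70 and HSP90 chaperones, and the co-factors that load and release their clients, rose together. The 63 measured genes of the HSP70, HSP90, HSP40 (DNAJ), small heat shock and BAG lists took 1.65, 1.67 and 1.6% of counts in the DMSO libraries and 9.73, 9.71 and 9.60% in the bortezomib libraries. HSPA8 and HSP90AA1, the main cytosolic HSP70 and the inducible HSP90, accounted for 0.610, 0.625 and 0.556% before and 5.37, 5.26 and 5.24% after. All 3 bortezomib libraries lay far above all 3 DMSO libraries in each sum. In the HSP70 and HSP110 list, which also holds the factors HSF1 and HSF2, 15 of 15 measured genes rose, with a median log2 change of 1.69.

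HSPA6, a strictly inducible HSP70, started from a low level. It stood at 0.529, 1.02 and 0.650 CPM with DMSO and at 381, 394 and 390 CPM with bortezomib, a log2 change of 9.05 (SE 0.103). HSPA8 was abundant in every library, at 2732, 2770 and 2582 CPM before and 32356, 31613 and 31450 CPM after (log2 change 3.56, SE 0.033). HSPH1, the HSP110 that exchanges nucleotide on HSP70, went from 173, 175 and 153 to 5370, 5388 and 5314 CPM. The mitochondrial HSPA9 rose by 1.39 and HSF1, the main heat shock factor, by 0.59. HSPA1A and HSPA1B are near-identical copies whose reads may be shared, and their log2 changes were 6.53 and 6.66.

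Among small heat shock and BAG proteins, 8 of 9 measured genes rose, with a median of 1.10. BAG3, which hands HSP70 clients to autophagy, went from 37.8, 40.0 and 41.5 CPM to 2004, 2014 and 1974 CPM (log2 change 5.65). Its partner HSPB8 went from 220, 237 and 233 to 3497, 3566 and 3467 CPM (3.93). HSPB1 varied in DMSO, at 766, 786 and 1034 CPM with replicate 3 highest, and stood at 5509, 5723 and 5715 CPM with bortezomib (2.71, SE 0.119). BAG4, a silencer of death receptors, was not called (0.17).

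The J-domain proteins, which stimulate HSP70, were more divided, with 19 of 24 measured genes higher and 3 lower (median 0.71). DNAJA4 led with 46.8, 47.6 and 45.1 CPM before and 1200, 1223 and 1205 CPM after (4.70), followed by DNAJB1 (4.56) and DNAJB4 (3.99). DNAJB5, DNAJC9 and DNAJC5 fell by 0.65, 0.58 and 0.22. In the HSP90 list 13 of 15 genes rose (median 0.93). STUB1, the ubiquitin ligase that binds HSP70 and HSP90, fell from 131, 130 and 149 CPM to 51.3, 51.2 and 46.8 CPM, a log2 change of -1.45, and FKBP5, a steroid-induced co-chaperone, by 0.54. Cytosolic and mitochondrial chaperonins, listed together with prefoldin subunits, rose in 15 of 16 cases with a median of 0.73. The rises ran from HSPD1, the mitochondrial chaperonin, at 2.21 to CCT7, a subunit of the cytosolic ring, at 0.46. The prefoldin gene PFDN6 was not called (-0.04).

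Pseudogenes of these genes were called higher too, with 1 exception. All 12 tested pseudogenes of HSPA8 were called, with a median of 3.40 beside 3.56 for HSPA8 itself, and the 5 of HSP90AA1 had a median of 3.45. Of 5 pseudogenes of HSPD1 4 were called, and they ran from 0.402 to 2.48 beside 2.21 for HSPD1. The counting of reads that fit several places is not given in the sources used here. Reads of the parent and its copies cannot be told apart.

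**Figure D2:**
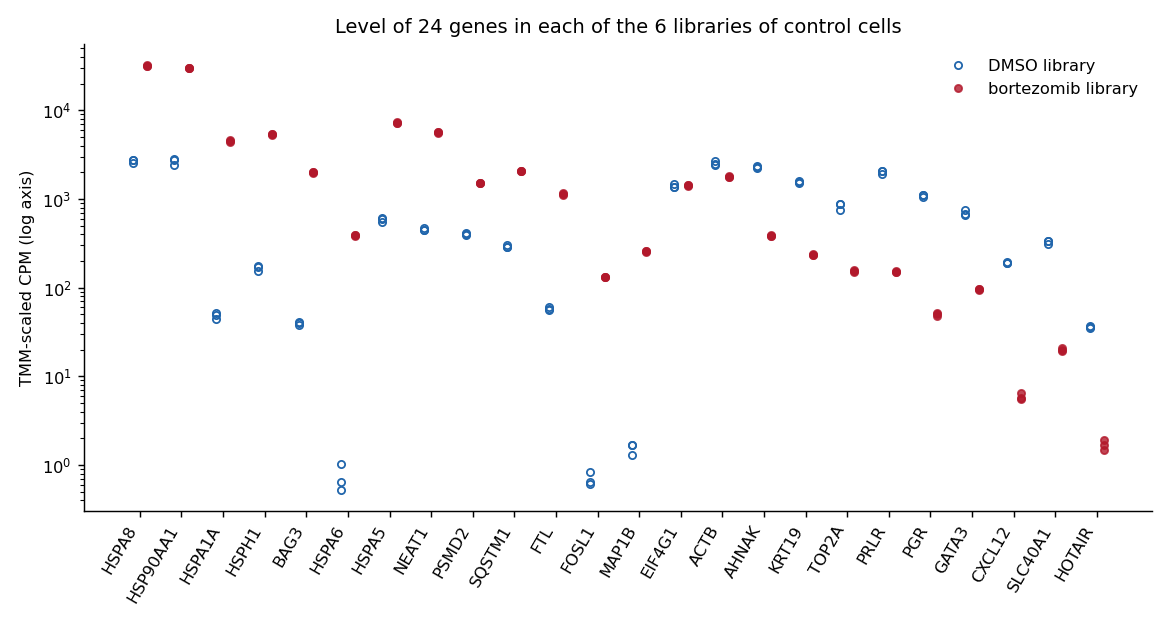
TMM-scaled CPM (log axis) of 24 genes in each library, open circles for the 3 DMSO libraries and filled circles for the 3 bortezomib libraries of control cells. Apart from EIF4G1, which was not called, the open and filled circles of each gene do not overlap, and for most genes the 3 circles of a group nearly coincide.

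Both particles of the proteasome rose by a similar amount. Among 19S subunits 17 of 18 measured rose (median 1.26) and among 20S subunits 13 of 13 (median 1.18), of which 15 and 11 rose at least 2-fold. Together they took 0.571, 0.565 and 0.574% of counts in DMSO and 1.07, 1.06 and 1.07% in bortezomib libraries. PSMD2, the target of the uninduced hairpin, stood at 408, 392 and 417 CPM before and 1509, 1510 and 1528 CPM after (1.90, SE 0.033). PSMD7, a 19S lid subunit, was the exception: it had 198, 209 and 181 CPM before and 197, 203 and 198 CPM after, with overlapping groups. PSMB5, the subunit that bortezomib binds, rose by 0.69 and PSMB1 by 0.31, the latter less than the shift that library totals give.

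Genes that build or accessorise the proteasome did not share this rise. Of 14 measured assembly and activator genes 6 rose and 5 fell, with a median of 0.01 that turned negative with library totals, with upper-quartile factors, without the filter on low counts and without control DMSO replicate 3. POMP, the maturation factor of the 20S core, rose by 1.24, the activator PSME4 (PA200) by 1.48 and the deubiquitinase USP14 by 1.59 (102, 103 and 96.3 CPM before, 299, 302 and 311 CPM after). The assembly chaperones PSMG4, PAAF1, PSMG2, PSMG3 and PSMD10 fell by 0.88, 0.72, 0.38, 0.29 and 0.26. In the immunoproteasome and antigen presentation list 7 of 15 genes rose and 7 fell, with a median of 0.31 that turned negative with library totals. The catalytic subunits induced by interferon were among those that fell: PSMB9 went from 8.61, 9.13 and 10.8 CPM to 0.855, 0.334 and 0.476 CPM (-4.08, SE 0.261), and PSMB8 fell by 1.19. The peptide transporter TAP1 fell by 0.92, whereas HLA-C rose by 1.07, with the reservation that HLA genes share reads.

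Of the 11 factors around NRF1 and NRF2 (NFE2L2), 10 rose and 1 fell, with a median of 1.24. NFE2L1 itself rose from 244, 237 and 242 to 610, 628 and 622 CPM (1.36) and NFE2L2 by 1.24. Their small MAF partners rose more: MAFG went from 24.1, 24.8 and 24.1 to 336, 332 and 317 CPM (3.76), and MAFF from 2.49, 2.61 and 4.18 to 150, 142 and 137 CPM (5.54). BACH1, a repressor that competes for the same elements, rose by 2.55. NGLY1, which removes sugars from NRF1, rose by 1.0, while DDI2, the protease that releases NRF1 from the ER, fell by 0.63.

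Ubiquitin and the enzymes that handle it were mostly higher. In the list of polyubiquitin genes and shuttle receptors 12 of 13 rose (median 0.73), among them UBB, which encodes a ubiquitin chain, from 211, 214 and 244 to 1128, 1149 and 1143 CPM (2.36). Of 22 measured genes for the unfoldase p97 (VCP) and its cofactors 20 rose and 1 fell (median 0.88). YOD1, a deubiquitinase of p97 complexes, went from 14.8, 15.5 and 14.2 to 124, 122 and 120 CPM (3.04), and ZFAND5, a proteasome-binding zinc finger protein, rose by 2.45. VCP rose by 1.11 and its adaptors UFD1 and NPLOC4 by 2.03 and 1.91. Deubiquitinases had 23 of 28 members higher and 5 lower (median 0.58), with UCHL1 (1.87) and USP12 (1.68) at the upper end and USP18, which trims ISG15, at -1.88.

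Conjugating enzymes were divided, with 16 of 26 E1 and E2 genes higher and 5 lower and a median of 0.19 that turned negative with library totals. UBE2B, which works with the DNA damage ligase RAD18, rose by 2.13. UBE2C, which serves the anaphase-promoting complex, fell from 171, 175 and 192 to 32.5, 27.7 and 28.8 CPM (-2.60). The enzyme of ISG15, UBE2L6, fell by 1.34.

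Autophagy and lysosome genes moved in the same direction. Of 26 measured autophagy genes 21 rose and 1 fell (median 0.73), including the initiation scaffold RB1CC1 (1.96), the protease ATG4A (1.97) and ULK1 (1.51), in addition to MAP1LC3B and GABARAPL1. TFE3, a factor of lysosomal genes, rose by 1.65 while its relative TFEB, at a low level, fell by 0.93. Of 26 lysosome and vacuolar ATPase genes 22 rose and 3 fell (median 0.64). The alpha-galactosidase GLA (2.53), the cholesterol exporter NPC1 (2.30) and cathepsin L (CTSL, 1.74) led, and cathepsin B (CTSB) fell by 0.84.

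ER chaperones and genes of ER-associated degradation rose in 26 of 27 cases with a median of 1.18. HSPA5 (BiP) went from 600, 611 and 558 to 7202, 7299 and 7379 CPM, and HYOU1, its nucleotide exchange factor, from 370, 367 and 402 to 2027, 2048 and 2048 CPM (2.43). HSP90B1 (GRP94) rose by 1.75. Vesicle coat and translocon genes had 22 of 27 members higher and 2 lower, with a smaller median of 0.48 and a single rise over 2-fold, that of the cargo adaptor SEC24D (1.76).

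The sensors and factors upstream went both ways, 5 higher and 5 lower of 10, with a median of 0.03 that turned negative with library totals, with upper-quartile factors and without the filter. ERN1 (IRE1) rose from 15.9, 15.1 and 12.6 to 85.1, 84.9 and 82.5 CPM (2.53), ATF6 by 1.19 and EIF2AK3 (PERK) by 0.92. XBP1, whose messenger RNA IRE1 splices, fell from 844, 838 and 764 to 202, 191 and 195 CPM (-2.06). CREB3L4, an ER-bound factor of luminal and prostate cells, fell from 81.3, 83.3 and 78.3 to 14.0, 13.4 and 13.1 CPM (-2.58), and CREB3L2 by 1.97.

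In the integrated stress response list 15 of 22 genes rose and 4 fell (median 1.07). ATF3, a factor induced by ATF4, went from 28.0, 29.7 and 27.0 to 382, 391 and 384 CPM (3.77), and SESN2, which restrains mTORC1, from 18.0, 20.3 and 23.6 to 214, 220 and 220 CPM (3.41). TRIB3, a feedback inhibitor, rose by 1.87. Kinases of the pathway did not move together: EIF2AK3 is given above, EIF2AK1 and EIF2AK4 fell by 0.23 and 0.45, and EIF2AK2 was not called. STC2 and NUPR1, both known targets of ATF4, fell by 0.47 and 0.24.

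Genes of amino acid supply rose with exceptions. In serine, one-carbon and asparagine synthesis 10 of 16 rose and 4 fell (median 0.44), with ASNS, the asparagine synthetase, from 37.2, 42.5 and 40.2 to 164, 164 and 169 CPM (2.06) and the cytosolic SHMT1 at -1.66 while mitochondrial SHMT2 rose by 0.71. Amino acid transporters had 10 of 15 members higher and 4 lower (median 0.58). SLC7A1, the arginine importer, rose by 1.49 and SLC3A2, the chain shared by several exchangers, by 1.09, while the exchanger SLC7A8 fell by 1.79. Cytosolic tRNA synthetases rose in 14 of 20 cases (median 0.60), GARS1 by 1.24 and SARS1 by 1.17, and QARS1, FARSA, LARS1 and VARS1 fell by 0.76, 0.54, 0.36 and 0.23.

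Genes of thiol and iron metabolism rose more often than they fell. Of 28 glutathione and thioredoxin genes 17 rose and 9 fell (median 0.53). TXNRD1, the cytosolic thioredoxin reductase, went from 308, 309 and 290 to 1649, 1634 and 1632 CPM (2.44), and GCLM, a subunit of the first enzyme of glutathione synthesis, rose by 2.59. GPX4, which reduces lipid peroxides, fell by 1.25, the membrane-bound glutathione transferase MGST2 by 2.46 and TXNRD2, the mitochondrial reductase, by 1.16. Of 25 heme, iron and reductase genes 19 rose and 6 fell (median 1.12, the same with the genes at 0 in DMSO set to their lower bound).

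Iron storage and iron export moved apart. FTL, the ferritin light chain, rose from 57.5, 60.2 and 56.3 to 1153, 1172 and 1125 CPM (4.31, SE 0.041) and FTH1, the heavy chain, by 1.65. SLC40A1, the iron exporter ferroportin, fell from 337, 338 and 313 to 21.01, 19.3 and 19.6 CPM (-4.04, SE 0.055). The transferrin receptor TFRC fell by 0.28. The aldo-keto reductase AKR1B10 had no count in DMSO libraries and was at least 22.6-fold higher with bortezomib, and AKR1B1 at least 14.9-fold, against a floor of 3 counts over the group. Metallothioneins and metal transporters were split 5 and 5 (median -0.11), with the metal sensor MTF1 at 1.57 and the metallothionein MT2A at -1.83.

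Genes of mitosis fell almost without exception, 29 of 30 with a median of -1.58, and their share of counts went from 0.649, 0.651 and 0.610% to 0.176, 0.169 and 0.174%. CDK1, the mitotic kinase, went from 346, 343 and 298 to 55.0, 54.8 and 56.2 CPM (-2.57), and TOP2A, which untangles chromosomes, from 875, 876 and 753 to 159, 151 and 153 CPM (-2.44). Control DMSO replicate 3 was the lowest of its group for both, and the groups were far apart. The mitotic genes that fell least were BUB1B and KIF23, by 0.52 and 0.61. BUB3, a checkpoint protein, was called higher at 0.11, but lower with library totals (-0.275) and negative with upper-quartile factors (-0.024).

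Replication genes had 21 of 30 members lower and 6 higher (median -0.52), so the 2 parts of the cell cycle differed in size. RFC4, a clamp loader subunit, fell by 1.61, PRIM1, the primase, by 1.56 and MCM3, a helicase subunit, by 1.21. Parts of the origin recognition complex rose, ORC6 by 1.23 and ORC1 by 1.09, as did GINS3 by 1.0, while GINS1 and GINS2 of the same complex fell. Among 19 genes of G1 control 4 rose and 12 fell (median -0.44). CCND1, cyclin D1, fell from 176, 185 and 188 to 40.8, 43.9 and 37.9 CPM (-2.16), CDKN2C (p18) by 2.30 and E2F1 by 0.83, while the E cyclins CCNE1 and CCNE2 rose by 1.19 and 0.93. Histone genes, measured here in polyadenylated RNA and including replacement and linker variants, had 8 of 11 members lower and 1 higher (median -0.84). H2BC5, a core histone gene, fell by 2.41, and H3-3B, a replacement histone, rose by 0.80.

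Targets of p53 moved in both directions, 14 higher and 5 lower of 22, with a median of 0.31 that turned negative with library totals. GADD45A, a stress sensor that ATF4 also induces, went from 3.25, 3.91 and 3.81 to 160, 156 and 159 CPM (5.44), whereas TP53I3, an oxidoreductase induced by p53, fell from 394, 377 and 389 to 64.6, 64.8 and 69.7 CPM (-2.54). FDXR, a mitochondrial reductase, fell by 1.41.

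The BCL2 family was divided as well, with 11 of 19 higher and 5 lower (median 0.63). The protective MCL1, a short-lived protein, rose from 356, 371 and 341 to 848, 809 and 814 CPM (1.21), and BCL2A1 was at 0 in DMSO and at least 16.8-fold higher. The protective BCL2 fell from 7.55, 8.66 and 8.46 to 0.855, 1.56 and 0.834 CPM (-2.89) and BCL2L1 (BCL-XL) by 1.32. Among promoters of death BBC3 (PUMA) rose by 1.96 and BCL2L11 (BIM) by 0.67, while BAD fell by 1.44, BOK by 1.01, and BAX, BID and BIK were not called (-0.05, -0.04 and -0.07). Death receptor and caspase genes had 15 of 24 members higher and 5 lower (median 0.41). TNFRSF10B, the TRAIL receptor DR5, went from 65.9, 68.2 and 63.6 to 387, 381 and 383 CPM (2.54) and TNFRSF10A (DR4) rose by 2.32, while the decoy TNFRSF10C fell by 1.73. CASP4, an inflammatory caspase, rose by 3.29 and CASP8 by 1.27, and BIRC5 (survivin), also a mitotic gene, fell by 2.10.

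**Figure D3:**
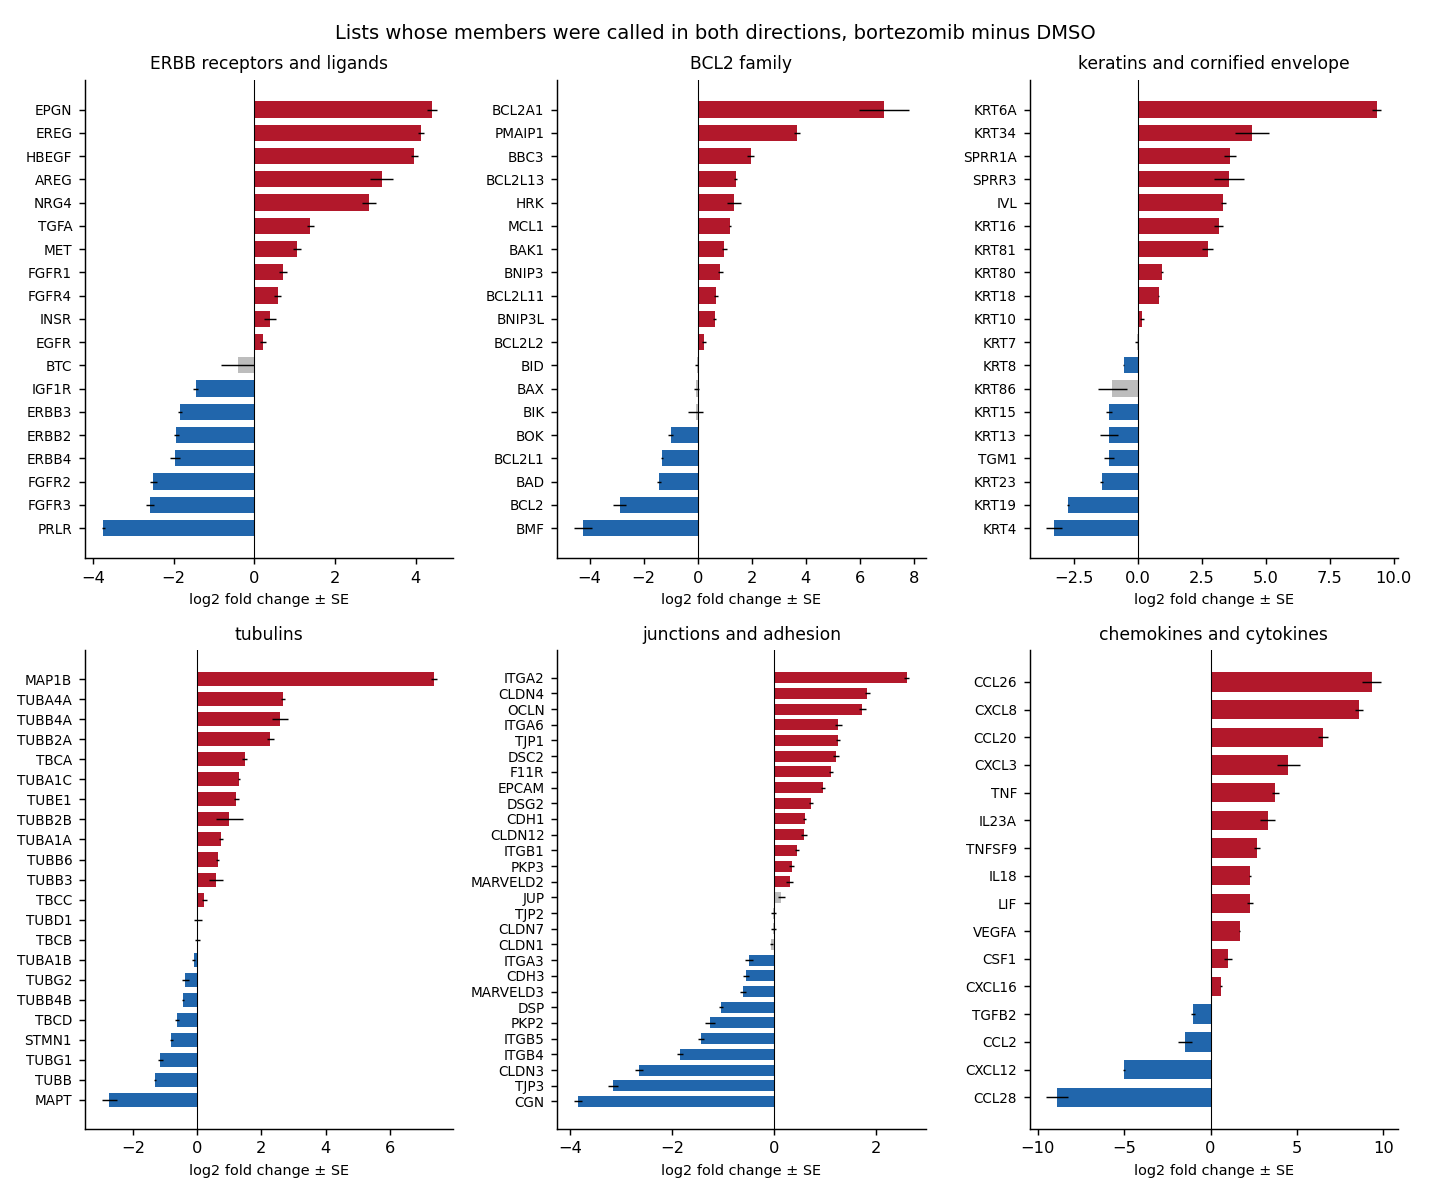
Fitted log2 change (bortezomib minus DMSO) with its SE for every measured member of 6 lists called in both directions, red for called higher, blue for called lower and grey for not called. In the panel of ERBB genes the ligands other than BTC lie to the right and ERBB2, ERBB3 and ERBB4 to the left; bars of genes with no count in 1 group (BCL2A1, CCL26, CCL28) depend on the prior count and are not bounds.

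Immediate early and inflammatory genes rose unevenly. Of 10 AP-1 factors 6 rose and 2 fell (median 0.85). JUN went from 45.2, 42.5 and 47.8 to 411, 423 and 410 CPM (3.20) and FOSL1 from 0.604, 0.838 and 0.650 to 133, 131 and 132 CPM (7.55), whereas JUNB fell by 0.54 and JUND was not called (-0.10). Early response factors had 14 of 20 members higher and 4 lower (median 0.77), including KLF4 (2.70), KLF6 (2.37), IER5 (1.5) and MYC (1.29). EGR3, a zinc finger factor of this list, fell by 3.92, from 0.982, 1.21 and 1.95 to 0.122, 0.111 and 0 CPM. Feedback regulators of MAP kinase signalling had 10 of 16 members higher and 2 lower (median 0.70), led after DUSP1 by SPRY4 (3.71) and ERRFI1, an inhibitor of EGFR (2.87).

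NF-kappaB genes had 14 of 19 members higher and 5 lower (median 0.97). The feedback inhibitors TNFAIP3 (A20) and NFKBIZ rose by 2.86 and 2.68, TNFAIP3 from 4.76, 6.05 and 6.69 to 40.6, 43.4 and 41.8 CPM. NFKBIA, the inhibitor that the proteasome degrades, rose by 0.80. Of 16 chemokines and cytokines 12 rose and 4 fell (median 2.28, the same with bounds for CCL26 and CCL28). IL18 rose from 18.7, 18.5 and 16.1 to 85.4, 89.1 and 84.7 CPM, LIF by 2.27 and VEGFA by 1.68, and TGFB2 fell by 1.03. Interferon-stimulated genes had no common direction, with 13 of 28 higher and 10 lower. Their median of 0.04 turned negative with library totals, with upper-quartile factors, without the filter and without control DMSO replicate 1. IFIT2 and IFIT3 rose by 3.44 and 2.54, while OAS3, at 151, 160 and 171 CPM before and 87.0, 91.5 and 91.9 CPM after, fell by 0.83.

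Factors that set the luminal state had 16 of 19 members lower and 3 higher, with a median of -2.26. GATA3, the defining luminal factor, went from 667, 678 and 756 to 96.5, 93.5 and 97.9 CPM (-2.87) and TRPS1, a GATA relative, from 915, 964 and 875 to 107, 103 and 117 CPM (-3.08). FOXA1, which opens chromatin for the estrogen receptor, fell from 338, 354 and 363 to 73.7, 72.9 and 73.4 CPM (-2.26). TBX3 and ELF3 rose by 2.17 and 1.01, and GRHL1 was called higher at 0.25 but lower with library totals (-0.134). Summed over the 10 luminal markers the level went from 7078 to 7194 CPM in DMSO to 3939 to 4025 CPM in bortezomib libraries, but the epithelial markers EPCAM, KRT18 and CDH1 rose by 0.96, 0.82 and 0.61. Fibroblast markers summed to 26.0 to 31.4 CPM with DMSO and 63.5 to 69.8 CPM with bortezomib, almost all of it COL1A1, which rose by 1.24. Leukocyte markers summed to at most 3.07 CPM and endothelial markers to at most 0.378 CPM in any library. The part of these marker changes in the luminal falls was not tested.

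Estrogen receptor targets fell in 24 of 25 cases with a median of -2.09. GREB1 went from 365, 359 and 389 to 27.2, 27.8 and 31.6 CPM (-3.68), MYB, a factor of these cells, from 30.4, 24.5 and 26.3 to 1.22, 1.45 and 1.43 CPM (-4.30), and IGFBP4 fell by 2.78. Some of these genes, CCND1 and CXCL12 among them, also stand in other lists.

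Most receptors of the ERBB family fell and most of its ligands rose. The ERBB receptors other than EGFR fell: ERBB3 went from 455, 459 and 445 to 123, 128 and 129 CPM (-1.84), ERBB2 fell by 1.93 and ERBB4 by 1.95. EGFR was called higher at 0.21, less than the shift that library totals give. Of the ligands, EREG rose from 10.4, 9.59 and 7.90 to 173, 158 and 161 CPM (4.13), HBEGF from 8.08, 8.29 and 4.65 to 110, 114 and 109 CPM (3.97), EPGN by 4.40, NRG4 by 2.84 and TGFA by 1.39, and BTC was not called (-0.41). In the whole list, which holds other receptor kinases too, 11 of 19 rose and 7 fell (median 0.39). PRLR, the prolactin receptor, showed the largest fall of the list, from 2069, 2065 and 1934 to 150, 153 and 150 CPM (-3.75, SE 0.038).

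Keratin and cornified envelope genes were split 10 higher and 7 lower of 19, with a median of 0.17 that turned negative with library totals. Coding genes whose symbol starts with KRT had 9 of 20 members higher and 8 lower, with a median of -0.29. KRT19, a simple epithelial keratin, fell from 1523, 1543 and 1601 to 235, 237 and 238 CPM (-2.72), while the stress and squamous genes KRT16, KRT81, SPRR1A and IVL (involucrin, 7.03, 8.85 and 7.25 to 80.1, 73.6 and 80.9 CPM) rose by 3.16, 2.74, 3.60 and 3.35. Keratin genes share sequence, so reads may be split between them. Junction genes were split 14 higher and 10 lower of 28, with a median of 0.23 that turned negative with library totals. TJP3, a tight junction scaffold, fell from 71.8, 62.9 and 79.2 to 7.08, 7.68 and 8.93 CPM (-3.17), CGN (cingulin) of the same junctions fell by 3.85 and CLDN3 by 2.65, while OCLN (occludin), TJP1 and the collagen-binding integrin ITGA2 rose by 1.74, 1.26 and 2.61. Among 9 measured mesenchymal genes 7 rose and 2 fell (median 1.75), including the laminin chain LAMB3, at 9.74, 10.3 and 10.96 CPM before and 33.8, 34.1 and 36.3 CPM after (1.75). The 2 that fell were VIM (vimentin), a mesenchymal filament protein, from 1.89, 1.30 and 1.58 to 0.122, 0.223 and 0.357 CPM (-2.72), and the mesenchymal factor TWIST1, by 0.97.

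Tubulin isotypes moved in opposite directions, with 12 of 22 listed genes higher and 8 lower (median 0.40). TUBB, the main beta tubulin, fell from 1172, 1155 and 1251 to 470, 475 and 498 CPM (-1.31), while TUBA4A rose from 34.7, 33.7 and 37.9 to 222, 226 and 228 CPM (2.67) and TUBB2A by 2.28. Tubulin isotypes are similar in sequence, and shared reads cannot be told apart. MAP1B, a microtubule-binding protein known from neurons, went from 1.28, 1.68 and 1.67 to 252, 257 and 259 CPM (7.38, SE 0.086), and MAPT (tau) fell by 2.74. Actin-linked targets of SRF and YAP had 15 of 23 members lower and 6 higher (median -0.61). ACTA2 fell from 160, 177 and 183 to 14.9, 20.2 and 18.1 CPM (-3.28), CCN2 by 3.07 and THBS1 by 1.82, while CCN1, another classic YAP target, rose by 1.66 and FLNA (filamin A) by 1.01.

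Energy metabolism moved less than the stress programmes. Glycolysis was split 10 and 10 of 21 (median -0.06), with LDHA, lactate dehydrogenase A, falling from 374, 377 and 340 to 122, 120 and 114 CPM (-1.62) and HK2, hexokinase 2, rising by 1.53. In the tricarboxylic acid cycle 13 of 25 fell and 10 rose (median -0.22). IDH2 fell from 222, 214 and 240 to 55.3, 53.5 and 59.7 CPM (-2.0) and PDHB by 1.32, and cytosolic IDH1 was called higher at 0.34 but turned with library totals (-0.043). Fatty acid oxidation had 12 of 20 members lower and 4 higher (median -0.32), with HADH at -1.27.

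Nuclear genes of oxidative phosphorylation fell more often than they rose. Of 35 nuclear genes 22 fell and 5 rose (median -0.25). ATP5MC1 and NDUFA2 fell by 1.11 each, and the small rises of NDUFB8 (0.32) and UQCRB (0.31) turned with library totals (-0.064 and -0.069). Of 13 genes of mitochondrial DNA 12 rose and 1 fell (median 0.44), but with library totals 5 rose and 1 fell with a median of 0.053, so most of this rise depends on the scaling. MT-ND4, a complex I subunit, went from 10251, 9793 and 10180 to 13912, 15085 and 14813 CPM (0.54). MT-ND6, encoded on the opposite strand, fell by 0.34. Mitochondrial counts made up 5.15 to 5.35% of DMSO and 5.85 to 6.15% of bortezomib libraries.

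Sterol and fatty acid genes had 16 of 27 members lower and 10 higher (median -0.41), and parts of the pathway differed. ACAT2, a thiolase at the start of sterol synthesis, fell from 115, 117 and 112 to 37.1, 36.3 and 38.6 CPM (-1.62) and SREBF1, a factor of lipid genes, by 1.31. HMGCS1, the next enzyme of the pathway, rose from 185, 181 and 169 to 383, 375 and 367 CPM (1.07). In the hypoxia list 11 of 19 rose and 5 fell (median 0.63), with the demethylase KDM3A at 1.83 and ADM at 1.75, and LOX at -1.90.

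Genes of the translation apparatus changed little and mostly upward on the TMM scale. Cytosolic ribosomal proteins were called higher in 38 of 42 cases and lower in 1 with a median of 0.38, which was -0.001 with library totals. Translation factors had 25 of 32 members higher and 3 lower (median 0.52). EIF5, which sets the start codon, went from 335, 341 and 304 to 1473, 1481 and 1502 CPM (2.18), EIF4G2, a factor of cap-independent initiation, from 1196, 1224 and 1152 to 3288, 3293 and 3271 CPM (1.46), and EIF1 rose by 1.73. EEF2K and EIF4EBP2, which restrain translation, fell by 1.63 and 1.05. Ribosome biogenesis genes were called higher in 23 of 28 cases, with a median of 0.28 that turned negative with library totals, and UBTF, a factor of RNA polymerase I, fell by 2.03.

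Splicing factors of the SR and hnRNP families were called in both directions, 15 higher and 10 lower of 29, with a median of 0.08 that turned negative with library totals and with upper-quartile factors. The kinase CLK1, whose own transcript is spliced under stress, rose by 1.55, and HNRNPF fell by 1.11. Mitochondrial ribosomal proteins were split 14 and 14 of 36, with a median of 0.02 that turned negative with library totals, with upper-quartile factors, without the filter and without control DMSO replicate 3. Mitochondrial import and protease genes had 15 of 25 higher and 8 lower, with a median of 0.20 that turned negative with library totals. The peptidase PITRM1 rose from 164, 168 and 161 to 657, 638 and 655 CPM (1.98) and the matrix protease LONP1 by 1.39, while OMA1, a stress-activated protease, fell by 1.84.

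**Figure D4:**
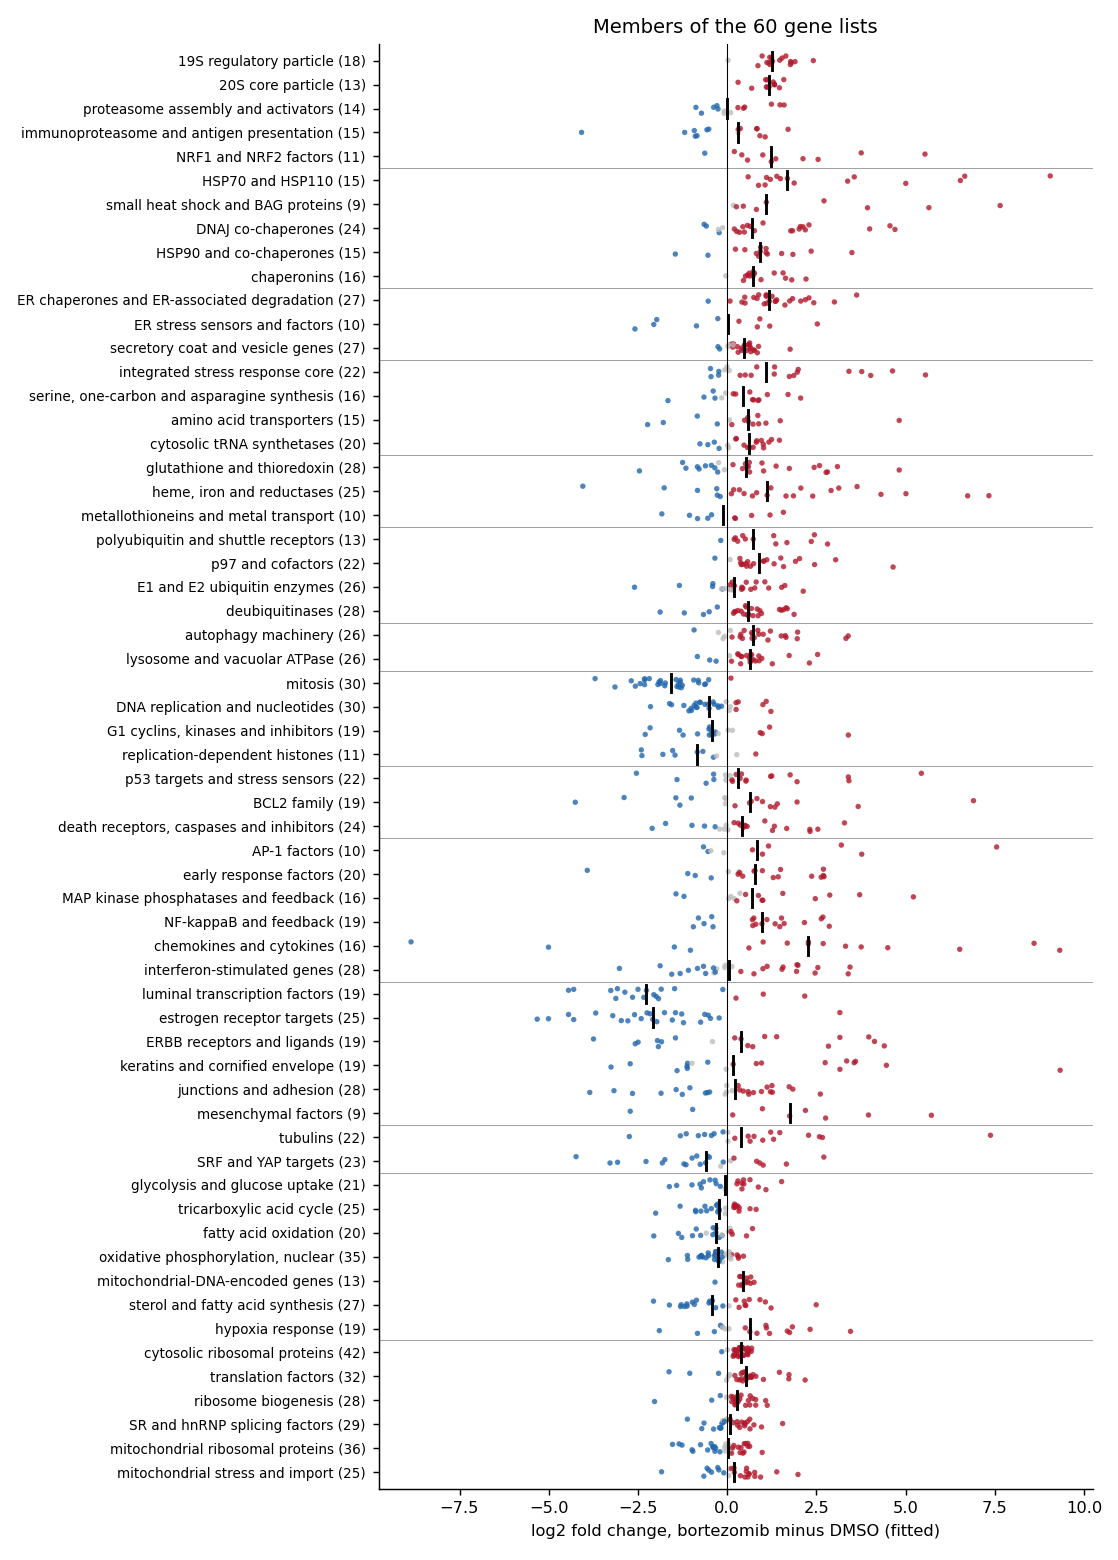
Fitted log2 change (bortezomib minus DMSO) of each measured member of 60 gene lists, 1 row per list with the number measured in brackets, red for called higher, blue for called lower, grey for not called, and the black bar for the median. Lists of the 19S and 20S proteasome, cytosolic chaperones and ER chaperones lie mostly to the right, and those of mitosis, luminal factors and estrogen receptor targets to the left, while most other lists straddle 0.

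The largest changes among genes with a count in every library and at least 10 CPM in 1 group came mostly from low starting levels. After the heat shock genes, FOSL1 and MAP1B, the largest rises were in CCL20 (6.52), a chemokine, IL10RA (6.27), a cytokine receptor chain, C1orf116 (6.06), SPX (5.96), a secreted peptide, and SCEL (5.81), a protein of the cornified envelope. SCEL went from 0.604, 0.652 and 0.557 to 33.1, 32.9 and 37.8 CPM. At the other end KLHDC7A went from 19.3, 18.3 and 18.7 to 0.366, 0.223 and 0.238 CPM (-6.04, SE 0.235). RAB26, a GTPase of secretory granules, fell by 5.95 and TMEM229B fell by 5.91. The bombesin receptor GRPR fell by 5.62, the Nogo receptor relative RTN4RL1 by 5.56, the sphingolipid desaturase DEGS2 by 5.24 and the channel protein CLIC3 by 5.21, from 130, 134 and 155 to 4.03, 2.67 and 4.64 CPM.

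Some genes had at most 3 counts in 1 of the groups. On the rising side were CCK, a gut and brain peptide hormone, with a ratio of 151 (95% counting interval 51.2 to 735), KPNA7, a nuclear import receptor, at 212 (58.2 to 1758), STMN4, a stathmin, at 87.0 (29.3 to 425), ADGRF4, an adhesion receptor, at 115 (31.3 to 956), and MMP13, a collagenase, at 92.4 (25.1 to 771). On the falling side were NYNRIN at 72.1 (24.4 to 352), LRRN3 at 81.7 (22.3 to 679) and PDZK1, a scaffold protein and estrogen target, at 44.2 (14.9 to 216), each as DMSO over bortezomib. These intervals cover counting error only, and the low group of each had 2 or 3 counts.

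In counts gained or lost the order was different. The lncRNA NEAT1, the scaffold of nuclear paraspeckles, rose from 476, 452 and 446 to 5667, 5725 and 5605 CPM (3.63, SE 0.037), one of the 10 largest gains of all genes. Those beside it were cytosolic heat shock genes, HSPA5 and MT-ND4. The largest losses included AHNAK, a giant scaffold protein, from 2299, 2373 and 2228 to 385, 379 and 396 CPM (-2.57), MGP, matrix Gla protein (-2.59), ACTB (-0.50), TUBB, TOP2A and XBP1, besides PRLR, KRT19, PGR and TRPS1.

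Long noncoding genes fell more often than coding ones. Of 1181 tested 204 rose and 694 fell, with a median of -0.95, and with library totals 142 and 818. Among protein-coding genes 5150 of 12346 rose and 5273 fell (median -0.02), and with library totals 3326 and 7246 (median -0.403). Many noncoding genes have few counts, and level and direction went together over all genes: 19.7% rose and 45% fell among the lowest 20% by mean level, and 62.4% rose and 28.5% fell in the highest, where the median of 0.32 was -0.059 with library totals. Of the 77 noncoding genes at 20 CPM or more, 32 rose and 41 fell. MALAT1, the neighbour of NEAT1, rose from 487, 470 and 429 to 2045, 2038 and 2030 CPM (2.14), and the snoRNA hosts ZFAS1, SNHG17 and GAS5 by 1.71, 1.59 and 1.37. DSCAM-AS1, a noncoding RNA of luminal breast cancer, fell from 169, 158 and 166 to 21.9, 19.2 and 24.1 CPM (-2.93), GATA3-AS1 by 3.90 and H19 by 2.08. The strand setting of the counting is not given in the sources used here. Antisense genes and the genes they overlap cannot be told apart with certainty.

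HOX genes, which set position along the body axis, fell as a group. Of 17 coding HOX genes 15 fell and 0 rose (median -1.31), and 7 of 7 HOX noncoding genes fell, and these medians kept their sign under each scaling tried. In HOXC on chromosome 12 all 8 measured coding genes fell at least 2-fold, with a median of -2.83, and HOXC10 went from 98.9, 98.7 and 102 to 21.5, 24.5 and 22.5 CPM (-2.12). HOTAIR, which lies in the HOXC cluster, went from 35.7, 35.4 and 36.98 to 1.47, 1.67 and 1.91 CPM (-4.41, SE 0.142). On chromosome 17, 3 of 5 HOXB genes fell with a median of -0.65, and on chromosome 7, 4 of 4 HOXA genes with a median of -0.91, at levels mostly under 10 CPM. A difference between the clusters was not tested.

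**Figure D5:**
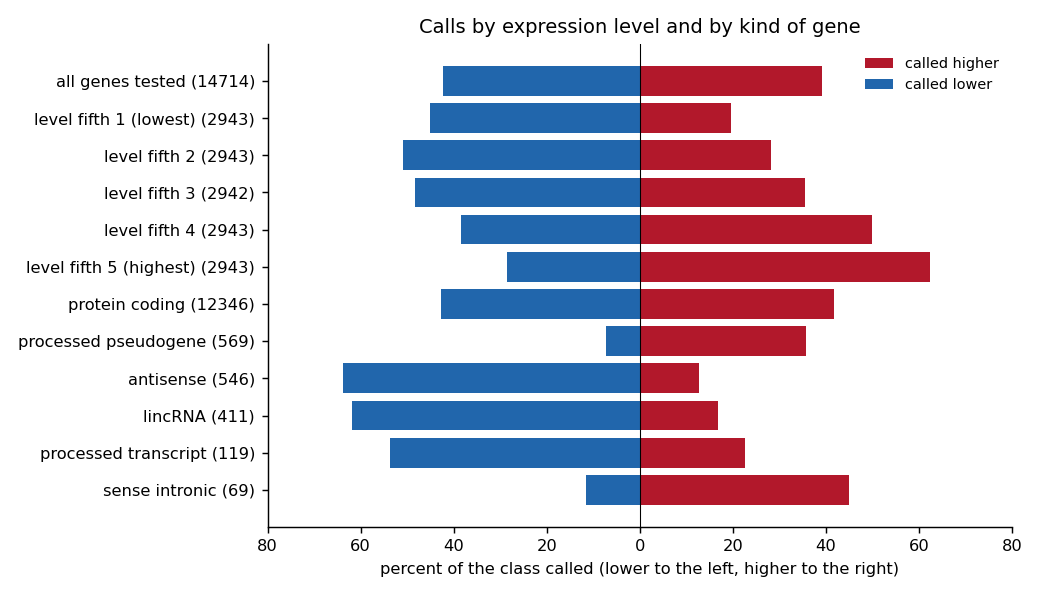
Percent of genes called lower (left) and higher (right) for all genes tested, for 5 equal bins of mean expression level and for kinds of gene, with the number tested in brackets. The higher share grows from 19.7% in the lowest bin to 62.4% in the highest on the TMM scale, and antisense and lincRNA genes were mostly called lower.

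Some gene families named by symbol changed direction with the scaling and others did not. Each family was taken by the start of the symbol, and coding members alone are counted except for SNHG. Zinc finger genes (ZNF) had 234 of 452 coding members higher and 110 lower with a median of 0.31, which was -0.068 with library totals. Coding USP genes, most of which encode deubiquitinases, had 30 of 45 members higher and 8 lower, at 0.30 and -0.08. Genes named SNHG (snoRNA hosts) had 12 of 23 higher and 6 lower, at 0.42 and 0.04. Coding kinesin genes (KIF) had 19 of 32 members lower and 11 higher (median -0.60), and 21 and 8 with library totals. Coding TMEM genes, named for their transmembrane proteins, had 81 of 153 members lower and 43 higher (median -0.26), and 108 and 28 with library totals.

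Against so broad a change, few abundant genes could be shown to be stable on the TMM scale. For 33 uncalled genes the 95% interval lay within 0.1 of 0 in log2. EIF4G1, the scaffold of cap-dependent initiation, had a mean of 1405 CPM before and 1434 after, a log2 change of 0.03 (SE 0.031, edgeR adjusted p = 0.373). It had the highest DMSO level of these 33, followed by CAPRIN1 (-0.03), RPL15, PAK2 and SF3B2 in an order not given here. With library totals, EIF4G1, RPL15, PAK2 and SF3B2 stood at -0.351, -0.376, -0.376 and -0.377, so their stability is relative to the TMM factors.

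The bortezomib response of control cells was last set against that of Lo19S cells, in the difference of both responses tested by edgeR over all genes. The difference was called for 4094 genes, 27.8% of those tested, 2126 above and 1968 below 0. Of the 2000 genes that rose in control cells and differed, the difference was below 0 for 1763, which is toward a smaller rise in Lo19S cells, and of the 1803 that fell and differed it was above 0 for 1703. Both responses are measured from their own DMSO libraries, and a larger control response enters the difference with the opposite sign, so these counts are a description. DKK1, a Wnt antagonist, changed direction: it fell by 1.10 in control cells, from 12.8, 14.5 and 12.5 to 6.23, 5.79 and 6.55 CPM, and was higher by 1.07 after bortezomib in Lo19S cells (difference 2.16, SE 0.17, edgeR adjusted p = 3.88e-14). DYSF, a membrane repair protein, rose by 3.68 in control cells, from 1.28, 2.14 and 1.76 to 21.3, 22.2 and 22.4 CPM, and by 1.07 in Lo19S cells.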

How the data were processed

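Polyadenylated RNA was sequenced from stranded libraries of T47D cells, per the labels' protocols. The deposited values are whole-number counts per gene, made by the authors with STAR 2.5.4b and featureCounts 1.6.1 on GRCh37, per the submitters' processing notes. Not given in the sources used here: the strand setting, the annotation and the treatment of multi-mapping reads. Groups follow the labels. In R 4.3.3, edgeR 4.0.16 (TMM factors, filterByExpr, robust quasi-likelihood test, 1 coefficient per group, all 12 libraries, Benjamini-Hochberg over 14714 genes, called at an adjusted p below 0.05) gave fold changes, with SEs from the F statistic. The steps were tested on simulated data in which few genes changed, equally in both directions. That simulation does not test the assumption of TMM under a change as broad as this one. Alternatives were DESeq2 1.42.0, limma 3.58.1 with voom, other scalings, filters, libraries and a replicate block. Replicate numbers were not used to pair the libraries in the main fit.

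Of 1341 genes in 60 lists, 1324 were found and 1246 passed the filter. Lists and members were chosen with earlier results of these data known. Genes named were the 12 largest rises and falls with a count in every library and at least 10 CPM, the 10 largest gains and losses in CPM, genes with at most 3 counts in 1 group and at least 3 CPM in the other, the 3 largest changes and the exceptions of each list, its factors and sensors, PSMD2, the 5 largest differences from Lo19S each way and the 5 most narrowly bounded uncalled genes. Some genes that this rule names are not reported here. Any other gene named was chosen after its values were seen. Gene kinds and exon numbers were matched by gene identifier, families by symbol, and promoters from RefSeq by symbol. With 3 libraries a group, the median SE was 0.091 on the log2 scale.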

Additional observations from a re-analysis of the deposited data

Results flagged for a closer look

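Among genes whose difference passed edgeR's test of the difference itself, 10 had the bortezomib response of Lo19S cells farthest from that of control cells, 5 on each side of 0. The response in Lo19S cells minus that in control cells, on the fitted log2 scale, was 6.69 for RBBP8NL, 3.445 for CYP2T1P, 2.619 for MYRFL, 2.36 for LINC01671 and 2.162 for DKK1. The first 4 fell in both kinds of cell, by less in Lo19S cells, and DKK1 changed direction. RBBP8NL had no count in the bortezomib libraries of control cells, and CYP2T1P and MYRFL had 3 in all, so their fitted differences depend on the prior count. The difference was -3.204 for KRT6A, -2.959 for C1orf116, -2.888 for NAP1L2, -2.821 for CRYAB and -2.607 for DYSF. All 5 rose in both kinds of cell, by less in Lo19S cells: CRYAB, a small heat shock protein, by 7.65 and 4.83, C1orf116 by 6.06 and 3.10, and NAP1L2, a histone chaperone relative, by 4.39 and 1.51. KRT6A had 4 counts over the DMSO libraries of control cells, and near-identical keratin genes may share its reads.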

How the results depend on the processing

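The number of genes called higher fell from 5761 to 3717 with library totals, and that of genes at least 2-fold higher from 2131 to 1237. The counts kept within 1.5 times of their value under each other alternative. DESeq2 called 5611 higher and 5826 lower, limma voom 5780 and 6173, the fit of the 6 control libraries 5638 and 5888, and the fit without a filter on low counts 5761 and 7062. Leaving out 1 library at a time gave 5594 to 5802 higher and 6064 to 6219 lower. With the replicate block 5728 and 6194 were called in all 12 libraries and 5681 and 5913 in the 6 control libraries. Same-numbered control libraries deviated from their group means with correlations of 0.024, 0.006 and 0.012. For libraries of different number the correlations ran from -0.014 to 0.003. Correlations this small cannot show whether the numbers mark pairs. The replicate block is given here only.

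With library totals the log2 change turned for BUB3 (-0.275), GRHL1 (-0.134), IDH1 (-0.043), ETFA (-0.238), NDUFB8 (-0.064), UQCRB (-0.069), EIF4G1 (-0.351), RPL15 (-0.376), PAK2 (-0.376) and SF3B2 (-0.377). With upper-quartile factors it was -0.024 for BUB3, -0.1 for EIF4G1, -0.125 for RPL15 and PAK2 and -0.126 for SF3B2. List medians that turned with library totals were those of proteasome assembly (-0.375), the immunoproteasome (-0.072), ER sensors (-0.348), E1 and E2 enzymes (-0.192) and p53 targets (-0.074). Those of interferon-stimulated genes (-0.336), keratins and cornified envelope genes (-0.212), junctions (-0.156) and ribosomal proteins (-0.001) turned too. So did those of ribosome biogenesis (-0.106), SR and hnRNP factors (-0.299), mitochondrial ribosomal proteins (-0.365) and mitochondrial import (-0.18). With upper-quartile factors proteasome assembly stood at -0.124, ER sensors at -0.097, interferon-stimulated genes at -0.087, SR and hnRNP factors at -0.048 and mitochondrial ribosomal proteins at -0.114. Without the filter proteasome assembly stood at -0.065, ER sensors at -0.038, interferon-stimulated genes at -0.028 and mitochondrial ribosomal proteins at -0.055. Leaving out 1 library at a time, the medians ran from -0.028 (without control DMSO replicate 3) to 0.035 for proteasome assembly, from -0.021 (without the same library) to 0.047 for mitochondrial ribosomal proteins, and from -0.052 (without control DMSO replicate 1) to 0.176 for interferon-stimulated genes. Of 348 genes checked, 330 kept direction and call under every alternative run. Genes under 1 CPM rest on few counts.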

Other observations

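Kinds of gene that the lists do not cover also differed in direction. Of 278 protein-coding genes whose longest transcript has a single exon, 30.6% rose and 53.6% fell (median log2 change -0.42), beside 44.6% and 41.3% of 1886 genes with 20 or more exons (median 0.02). Processed pseudogenes had 203 of 569 members higher and 41 lower, with a median of 0.39 that was 0.01 with library totals. Genes annotated as sense intronic, which lie inside an intron of another gene, had 31 of 69 members higher and 8 lower (median 0.54), and 24 and 15 with library totals (median 0.165), while antisense genes had 348 of 546 members lower and 70 higher (median -1.13). Coding genes of solute carriers (SLC) had 112 of 229 members lower and 81 higher, or 142 and 56 with library totals. The largest member changes on each side were those of SLC7A11 and SLC25A18. The part of expression level in these shares was not tested.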
